A study of Homo sapiens with 3 samples.

Results

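Matrix metalloproteinases (MMPs) and the tissue inhibitors that hold them in check (TIMPs) were examined for accessible chromatin in hCMEC/D3 cells, which are human endothelial cells of brain microvessels made immortal for culture. The set was chosen by gene symbol and held 10 genes of the 20037 protein-coding genes in the gene table used: 6 proteases (MMP1, MMP2, MMP3, MMP9, MMP10 and MMP14) and 4 inhibitors (TIMP1, TIMP2, TIMP3 and TIMP4). All 10 symbols were found. The cells were grown to confluence on rat tail type I collagen and used at passages 4 to 6, with no treatment or second genotype in the labels. The measurement was 1 ATAC-seq library, labelled replicate 2, in which a transposase tags open DNA. The deposited peak list gave 106415 broad peaks from 22188172 tags. A peak is a stretch where tags pile up above the local background, and its pileup is the number of overlapping extended tags, as a mean over the peak. With 1 library there was no spread between replicates, no test and no p-value, and every value describes this library only. A larger share of cells with an open site and a more open site in each cell cannot be told apart in such bulk data.

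MMPs are zinc-dependent proteases that are made as inactive precursors and cut the proteins of the extracellular matrix and of the basement membrane that surrounds brain vessels. TIMPs bind the active site of MMPs and block it. In brain vessels the balance between them is known for its part in vessel sprouting and in the opening of the blood-brain barrier during injury and inflammation. Several MMP genes lie side by side on chromosome 11, whereas TIMP genes are scattered, and some of them sit within introns of synapsin genes.

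Of the 10 genes, 8 had a peak at a gene end, meaning at least 1 bp within 1 kb of either end of the gene. The exceptions were MMP3 and MMP9. The same was true of 72.8% of all protein-coding genes (95% Wilson interval 72.2% to 73.5%), so the members' count was near the background. All 4 inhibitors and 4 of the 6 proteases had an end peak. Counting only peaks with a fold of at least 4 lowered the members' count to 5, without MMP2, TIMP2 and TIMP3, and the background to 56.0%. Within the gene or 10 kb either side, 9 of the 10 had a peak, against 89.8% of protein-coding genes, and MMP3 was the exception. In total, 47 peaks lay in these loci when a peak seen from neighbouring genes was counted once: 10 at gene ends, 20 inside genes and 17 in the flanks. The 26 peaks of the protease loci had pileups from 9.72 to 68.3 tags with a median of 24.7, and the 21 peaks of the inhibitor loci ran from 10.3 to 77.5 with a median of 34.8. The 2 ranges overlapped nearly throughout. Of the 21 inhibitor peaks, 9 lay at TIMP2, among them the 2 highest, and of the 26 protease peaks, 8 lay at MMP1 and MMP10. The medians are over peaks and lean on these loci. Over all peaks of the library the median pileup was 21.6 tags.

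**Figure D1:**
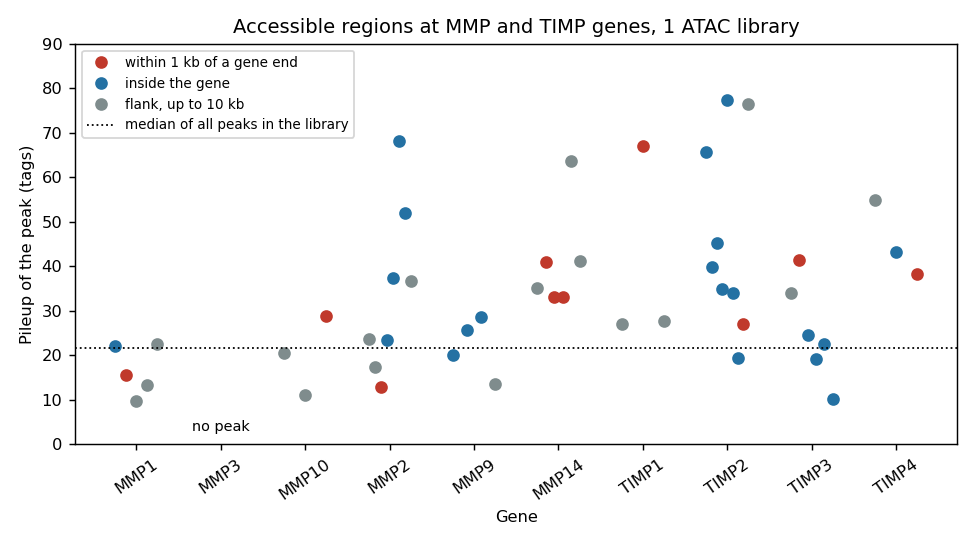
Pileup in tags (vertical axis) of each peak, by gene (horizontal axis), with peaks of 1 gene spread sideways in the order of their coordinates; red points lie within 1 kb of a gene end, blue points inside the gene, grey points in the 10 kb flank, and the dotted line is the median of all peaks, 21.6 tags. MMP3 has no point, the MMP1 points stay between 9.72 and 22.5 tags, and the highest point is a peak inside TIMP2 at 77.5 tags.

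Start sites could be placed for the 5 members with an entry in the RefSeq promoter table of build GRCh38.p14, namely MMP10, MMP14, TIMP1, TIMP3 and TIMP4. The table gives 250 bases before and 50 bases from the start, 300 in all. MMP1, MMP2, MMP3, MMP9 and TIMP2 have no entry there. These are MMP3 and MMP9, which had no end peak, and the members with the lowest end peaks. All 5 start sites lay under a peak, and the peak covered the whole window in 4 of them and 281 of the 300 bases at MMP10. Of the 15843 protein-coding promoters in the table, 67.0% were overlapped by a peak. The promoters of MMP10, TIMP1 and TIMP3 are printed because they show 3 different kinds of sequence under a start-site peak: a TATA box with an AP-1 match, the promoter under the highest end peak of the set, and a run of GC boxes. Each is given on the strand of its gene, with matches to the searched motifs in capitals. They lie at chr11:102780579-102780878 (minus strand), chrX:47582186-47582485 (plus strand) and chr22:32801455-32801754 (plus strand).
MMP10: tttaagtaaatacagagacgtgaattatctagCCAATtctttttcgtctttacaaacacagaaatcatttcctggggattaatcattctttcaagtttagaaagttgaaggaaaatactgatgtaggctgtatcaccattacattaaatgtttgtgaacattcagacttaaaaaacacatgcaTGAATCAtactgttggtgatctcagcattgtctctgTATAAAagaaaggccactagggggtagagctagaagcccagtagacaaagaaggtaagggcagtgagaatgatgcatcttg
TIMP1: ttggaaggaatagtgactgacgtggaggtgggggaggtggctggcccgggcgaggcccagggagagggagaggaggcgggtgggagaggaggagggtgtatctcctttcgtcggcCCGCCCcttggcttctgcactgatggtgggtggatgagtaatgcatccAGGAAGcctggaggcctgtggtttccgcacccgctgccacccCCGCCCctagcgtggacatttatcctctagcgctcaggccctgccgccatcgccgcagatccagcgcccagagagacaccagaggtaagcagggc
TIMP3: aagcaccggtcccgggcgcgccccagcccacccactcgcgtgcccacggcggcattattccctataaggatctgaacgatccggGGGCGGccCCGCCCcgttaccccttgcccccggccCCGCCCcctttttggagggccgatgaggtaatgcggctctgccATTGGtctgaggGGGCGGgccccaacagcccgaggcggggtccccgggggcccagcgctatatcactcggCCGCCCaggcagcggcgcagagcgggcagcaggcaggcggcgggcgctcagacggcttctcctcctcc

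On both strands, 5 motifs were searched, counting a palindromic match once. They were AP-1 (TGANTCA), ETS (AGGAAG), the TATA box (TATAAA), the GC box (GGGCGG) and the CCAAT box (CCAAT). A match is an exact run of these letters in the window, so forms that differ by 1 base were not counted. It says nothing of whether a factor was bound. MMP10 was the only 1 of the 5 with an AP-1 match, whose first base lies at -67 from the start, and the only 1 with a TATA box, at -31. AP-1 matches occurred in 5.75% and TATA boxes in 9.63% of protein-coding promoters of the same length. The other 4 promoters held GC boxes: TIMP3 had 5, TIMP1 had 2, and MMP14 and TIMP4 had 1 each. At least 1 GC box occurred in 58.5% of promoters. An ETS match was found at TIMP1 (-87) and TIMP4 (-76), and in 33.5% of promoters. The CCAAT box was found in every one of the 5 but TIMP1, and in 36.4% of promoters.

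The CpG ratio, which compares the number of CG pairs with that expected from the C and G content, was low in most of these promoters. It was 0.21 at MMP10, 0.39 at TIMP4, 0.44 at MMP14, 0.52 at TIMP1 and 0.79 at TIMP3, with a median of 0.76 over protein-coding promoters. Promoters of high CpG ratio are mostly CpG islands, which are commonly open in many cell types. Of protein-coding promoters with a ratio of at least 0.6, 89.0% were overlapped by a peak, whereas 24.8% of those under 0.6 were. Of the 5 members, 4 fell under 0.6, a limit set after the data were seen, and all 4 had a peak over the start. The share under 0.6 is not even: among promoters in the same bin of 0.05 as the member, a peak was found for 18.2% at MMP10, 28.7% at TIMP4, 37.7% at MMP14 and 53.5% at TIMP1. No test was made of this count, and which members have a promoter entry was set by the table. The members left out are MMP3 and MMP9, without an end peak, and MMP2 (12.8 tags), MMP1 (15.6) and TIMP2 (26.9), with the lowest. The count therefore covers only the 5 members with the highest end peaks and does not speak for the whole set.

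**Figure D2:**
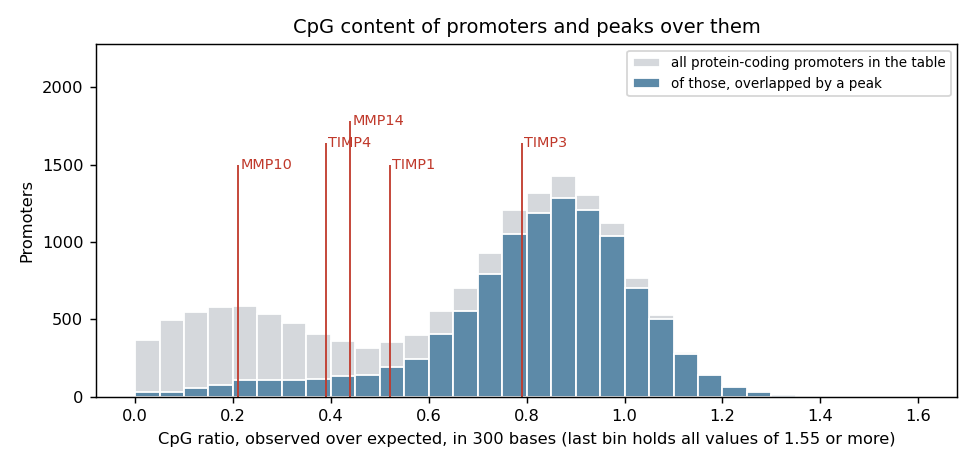
Number of protein-coding promoters (vertical axis) by CpG ratio in 300 bases (horizontal axis); grey bars count all promoters in the table, blue bars those overlapped by a peak, and red lines mark the 5 members with an entry. The share of promoters with a peak rises along the axis through the bins of the members, from 18.2% at MMP10 to 53.5% at TIMP1 and 87.3% at TIMP3.

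The secreted collagenase and stromelysins of chromosome 11 came first. MMP1, interstitial collagenase, cuts fibrillar collagens such as type I. It lies at 102789919 to 102798160 and had 1 peak at its upper end, from 102798096 to 102798355. Its pileup was 15.6 tags, which was 4.21-fold over background. Of the 14595 protein-coding genes that had an end peak, ranked by the highest one, 7.96% stood lower. A peak of 22.2 tags lay inside the gene (102794439 to 102794776, 6.87-fold). Beyond the upper end, peaks of 9.72, 13.4 and 22.5 tags followed at 1626, 4212 and 9831 bp from the gene. These 3 peaks, the inside peak and the end peak also lie within WTAPP1, a transcribed pseudogene that spans MMP1, and the last one overlaps the pseudogene CSNK1A1P2. MMP1 thus had more peaks than either stromelysin gene of the set, and of those not shared with MMP10 none exceeded 22.5 tags.

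MMP10, stromelysin-2, degrades proteoglycans and other matrix proteins and can activate other MMP precursors. It lies at 102770502 to 102780628. Its start-site peak, from 102780440 to 102780859, reached 28.8 tags and had the highest fold of all 47 peaks, 8.83, over a local background of 2.37 tags. That background is the floor that the peak caller assigns from the genome size. Among genes with an end peak, 22.9% had a lower highest pileup, so this peak stood out by its fold and not by its pileup. In the 10 kb flank MMP10 had peaks of 20.6 and 11.1 tags, at 9492 and 8504 bp from its lower end. The start-site peak also fell in the flank of MMP1, 9060 bp away, and was counted once, for MMP10.

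MMP3, stromelysin-1, is the close relative of MMP10 with a similar range of substrates. It lies at 102835801 to 102843609, and no peak was called in it or within 10 kb. The nearest peaks ended 24572 bp below the gene and began 43461 bp above it. The gene lay in a stretch of 75.8 kb without a peak, from 102811229 to 102887070, which also holds MMP12. On chromosome 11, 234 of 5295 gaps between neighbouring peaks were at least as long (4.42%), and the median gap was 8.8 kb. The 4.42% is a share of gaps, and the share of bases or genes lying in such gaps was not computed. No accessible chromatin was called at MMP3 in this library, where the lowest pileup called was 8.0 tags. Whether the chromatin there was closed, or open below the limit of calling, was not tested.

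Taken as 1 locus, the cluster on chromosome 11 holds 9 MMP genes with no other protein-coding gene between them, in the order MMP7, MMP20, MMP27, MMP8, MMP10, MMP1, MMP3, MMP12 and MMP13. From 10 kb before the first to 10 kb after the last, 455.2 kb held 24 peaks: 3 at gene ends, 6 inside genes and 15 between genes. The end peaks belonged to MMP7, MMP10 and MMP1, so 6 of the 9 genes had none. Pileups ran from 9.72 to 39.7 tags with a median of 18.3, under the 21.6 of all peaks. The local background was under 2.4 tags at 15 of the 24 peaks, against 35.3% of all peaks. Of the 8 peaks counted for MMP1 and MMP10, 3 exceeded the median of all peaks.

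**Figure D3:**
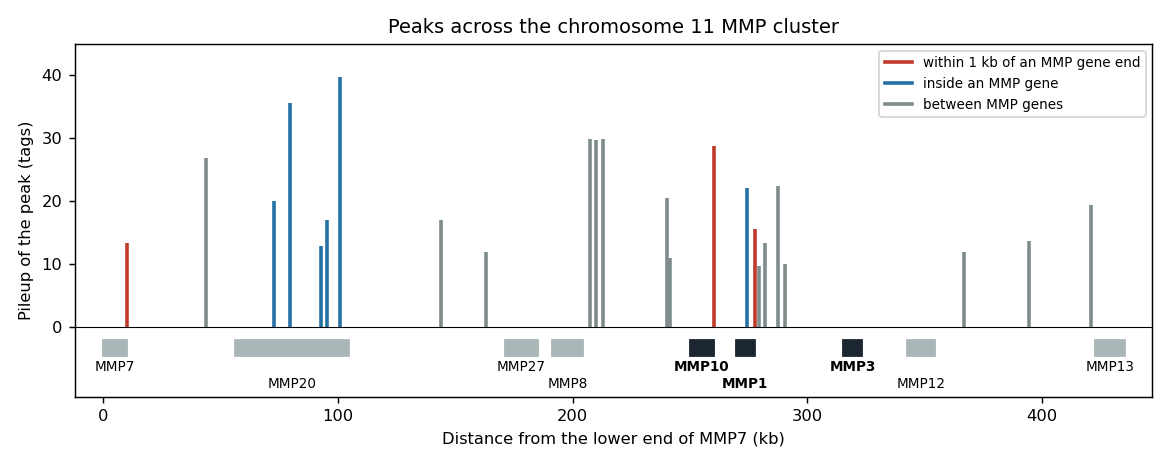
Pileup in tags (vertical axis) of the 24 peaks of the chromosome 11 MMP cluster by distance in kb from the lower end of MMP7 (horizontal axis), with genes as bars under the axis, black for MMP10, MMP1 and MMP3 and grey for the others. Peaks gather from MMP10 to beyond MMP1, and none stands over MMP3 or MMP12 in the 75.8 kb between 2 neighbouring peaks.

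The gelatinases MMP2 and MMP9 cut denatured collagens and type IV collagen of basement membranes. MMP2, gelatinase A, is made by many cell types without induction. It lies on chromosome 16 at 55478830 to 55506691 and had 8 peaks. The peak at its lower end, from 55478900 to 55479583, was the weakest end peak of the set, with 12.8 tags and a fold of 3.11, and 4.80% of genes with an end peak had a lower one. Inside the gene, 4 peaks had pileups of 23.4, 37.3, 68.3 and 51.9 tags in order of position. The peak of 68.3 tags, at 55499924 to 55500879, was higher than 96.4% of all peaks of the library, with a fold of 4.56 over a local background of 14.2 tags. The strongest signal at MMP2 was therefore inside the gene, toward its upper end. Its flank peaks had 23.7, 17.3 and 36.7 tags, and the last one lies at an end of the neighbouring gene LPCAT2.

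MMP9, gelatinase B, is the inducible gelatinase most often linked to barrier damage. It lies on chromosome 20 at 46008908 to 46016561. No peak lay within 1 kb of either end. Inside the gene 3 peaks had pileups of 20.0, 25.6 and 28.7 tags and folds of 2.74, 3.49 and 4.17, the first of them 1544 bp from the lower end. The third peak, at 46013831 to 46014469, also lies at an end of SLC12A5-AS1, a long noncoding RNA gene that overlaps MMP9. The flank peak of 13.5 tags lies at an end of SLC12A5, a neuronal potassium-chloride cotransporter gene. With an end window of 2500 bp in place of 1 kb, MMP9 had an end peak and MMP3 alone had none.

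MMP14 encodes a membrane-anchored protease (MT1-MMP) that cuts collagen at the cell surface and activates the MMP2 precursor. It lies on chromosome 14 at 22836585 to 22847758 and was the one member with peaks at both ends. The start-site peak, from 22836282 to 22836679, had 40.9 tags and a fold of 4.09. A second peak of 33.2 tags ran from 22837157 to 22838893 and, at 1737 bp, was the longest of the 47. At the other end a peak of 33.1 tags began 161 bp past the gene. Its fold of 2.52 was the lowest of the members' end peaks, and its −log10 q was 4.8. With a fold of at least 4 or a −log10 q of at least 5 it would not be counted. The highest pileup was in the flank, 63.7 tags at 22850970 to 22851820, which is 3212 bp past the gene and at no end of another gene. All 6 peaks of MMP14 had at least 33.1 tags, above the median of all peaks. A flank peak of 35.1 tags on the start side lies at an end of MRPL52, a mitochondrial ribosomal protein gene.

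Among the inhibitors, TIMP1, which blocks most secreted MMPs but inhibits MMP14 poorly, had the highest end peak of the 10 genes. It lies on chromosome X at 47582436 to 47586789, inside SYN1. The start-site peak, from 47582031 to 47582641, had 67.0 tags and a fold of 6.99, and 83.5% of genes with an end peak had a lower one. The flank held peaks of 27.0 and 27.6 tags at 2599 and 8834 bp from the gene, both inside SYN1. TIMP1 was the only member above the median of protein-coding genes for this measure, which was 45.7 tags with quartiles of 30.5 and 60.2.

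TIMP2 inhibits MMPs and also serves as the adaptor by which MMP14 captures and activates the MMP2 precursor. It lies on chromosome 17 at 78852977 to 78925387 and had 9 peaks, the highest count of the set in its longest gene. Per 10 kb of gene and flanks this was 0.97 peaks, against a median of 0.66 over protein-coding genes. This density was lower than at 7 of the other members, of which MMP1 had the highest with 2.12. Its end peak, at 78925312 to 78926406, had 26.9 tags and a fold of 3.89, and 20.8% of genes with an end peak had a lower one. The 7 peaks inside had pileups of 65.7, 39.8, 45.3, 34.8, 77.5, 34.1 and 19.4 tags in order of position. The peak of 77.5 tags, at 78883078 to 78884188, was the highest of all 47 and higher than 98.3% of the peaks of the library. The first of the 7, at 78861886 to 78862702, lies at an end of LOC124904068, a long noncoding RNA gene within TIMP2. A flank peak of 76.4 tags lay 8012 bp beyond the upper end, over a local background of 19.6 tags. The end peak was lower than 6 of the 7 peaks inside the gene.

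TIMP3 is bound to the matrix and also inhibits ADAM proteases that shed cell surface proteins. It lies on chromosome 22 at 32801705 to 32863041, inside SYN3. The start-site peak, at 32801339 to 32802269, had 41.4 tags and a fold of 3.53. Inside the gene 4 peaks had 24.6, 19.1, 22.5 and 10.3 tags, and a flank peak of 33.9 tags lay 4392 bp before the start. In TIMP3 the start-site peak was thus the highest of the locus.

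TIMP4, the inhibitor with the narrowest range of tissues, lies on chromosome 3 at 12153068 to 12158912, inside SYN2. The start-site peak, at 12158431 to 12159363, had 38.2 tags and a fold of 4.95. A peak of 43.3 tags lay inside the gene. In the flank a peak of 54.9 tags, at 12143886 to 12144591, had a fold of 8.10, second to MMP10 among the 47. All 3 peaks of TIMP4 were above the median of the library. TIMP1, TIMP3 and TIMP4 are thus the 3 members inside a synapsin gene, and none of their peaks lay within 1 kb of an end of SYN1, SYN2 or SYN3.

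**Figure D4:**
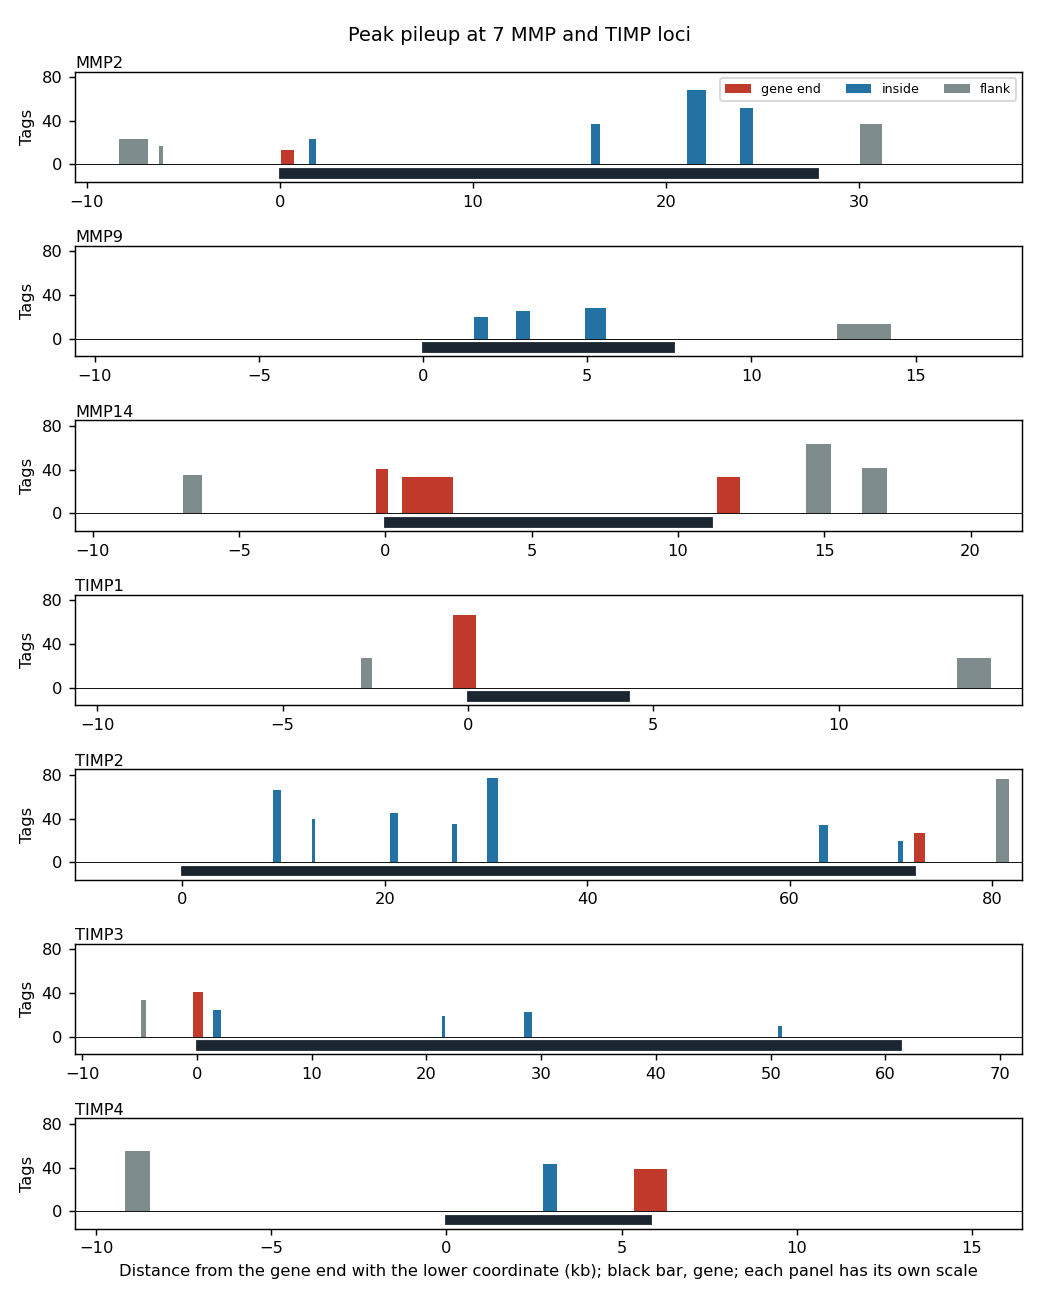
Pileup in tags (vertical axis) of the peaks at 7 loci by distance in kb from the gene end with the lower coordinate (horizontal axis, with its own scale in each panel); black bars are the genes, and red, blue and grey mark peaks at a gene end, inside and in the flank. The tallest bars stand inside TIMP2 (77.5 tags) and in its flank (76.4 tags), followed by those inside MMP2 (68.3 tags) and at the start of TIMP1 (67.0 tags).

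The position of the highest peak differed between members. All 8 genes with an end peak also had another peak in the locus, and the highest pileup was at an end in 3 of them: MMP10, TIMP1 and TIMP3. Among the 13074 genes of the background with both kinds of peak, this was so for 54.8%. In order of the highest end peak the members ran TIMP1 (67.0 tags), TIMP3 (41.4), MMP14 (40.9), TIMP4 (38.2), MMP10 (28.8), TIMP2 (26.9), MMP1 (15.6) and MMP2 (12.8). Without a second library no spread can be given for this order, and TIMP3 and MMP14 differed by less than 1 tag. Of the 8, 7 stood under the median of such genes genome-wide and 4 under the lower quartile. The median pileup of the members' end peaks was 33.2 tags and their median length 735 bp, against 40.1 tags and 944 bp for all peaks at ends of protein-coding genes. For peaks inside the members the median was 31.4 tags, against 20.3 for peaks inside protein-coding genes. Of the 20 peaks inside members, 7 lay in TIMP2 and 4 in MMP2. The median thus leans on these genes and does not hold for each member. In the flanks it was 27.0 tags for the members and 21.8 for protein-coding genes, but these sets were built differently. The flank set of all genes left out peaks at an end of or inside any protein-coding gene. The members' flanks kept such peaks, among them 3 at an end of another protein-coding gene and those inside synapsin genes. The flank medians therefore do not show whether the members' flanks stood higher.

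**Figure D5:**
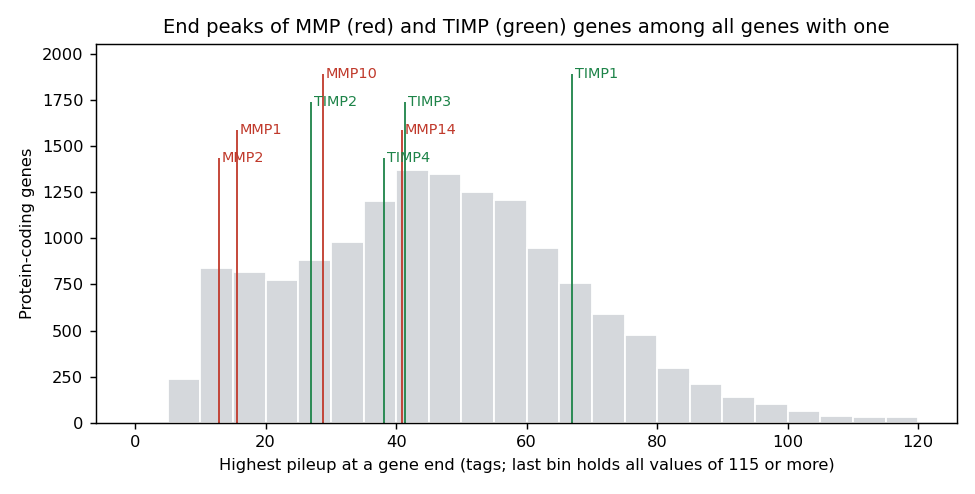
Number of protein-coding genes (vertical axis) by the highest pileup in tags at either gene end (horizontal axis); red lines mark the 4 MMP genes and green lines the 4 TIMP genes with an end peak. Of the 8 lines, 7 stand left of the median of genes with an end peak, 45.7 tags. TIMP1 stands right of it at 67.0 tags.

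Other MMP genes and genes that control MMPs were counted in the same way. Of 17 other MMP genes, 10 had an end peak, against the 72.8% of all protein-coding genes. With a fold of at least 4 this count was 4, against 56.0%. Of the 6 that share the chromosome 11 cluster with the members, 1 had an end peak, MMP7, and of the 11 elsewhere 9 did. Those without one were MMP8, MMP12, MMP13, MMP20, MMP21, MMP26 and MMP27. The highest end peaks were at MMP15 (47.2 tags), MMP17 (45.4) and MMP24 (43.5, shared with an end of MMP24OS), and the lowest at MMP16 (12.0), MMP7 (13.4) and MMP23B (20.9). Of 26 regulators and related proteases, 23 had an end peak, a larger share than the background. With a fold of at least 4 only 11 did, a smaller share than the 56.0% of protein-coding genes under that filter. The 23 comprised 9 of 12 inhibitors and activators, all 7 ADAM and ADAMTS proteases, and all 7 transcription factors of the AP-1 and ETS families. PLG, which encodes plasminogen, SERPINB2, an inhibitor of plasminogen activators, and A2M, a broad protease trap in plasma, had none. The highest were ADAM9 (105.1 tags), a membrane protease, and the AP-1 subunits JUNB (94.5) and JUN (91.7). The lowest were ADAMTS9 (12.9 tags), TFPI2 (21.3) and ADAMTS4 (21.8).

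The cell type of the label was checked with marker genes. An end peak may lie at either end of a marker gene, and start sites were not placed for the markers. All 9 endothelial markers had an end peak (PECAM1, CDH5, TIE1, TEK, KDR, ERG, VWF, CLDN5 and ESAM), against the background of 72.8%. Their highest end pileups ran from 10.98 tags at ERG and 13.2 at VWF to 62.7 at CDH5, with a median of 38.6. An end peak was also called at 4 of 6 fibroblast and mural markers, 5 of 5 leukocyte markers and 3 of 5 neuronal and glial markers, so the presence of an end peak does not by itself separate these cell types. The levels did not separate them either: end pileups of the leukocyte markers ran from 10.4 tags at PTPRC to 93.6 at CD68, and the CD68 peak was higher than that of every endothelial marker listed. LUM, DCN, AQP4 and OLIG2 had no end peak, and no peak was called at DCN or AQP4 or within 10 kb. The part of other cells in the peaks of the MMP and TIMP genes was not tested.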

How the data were processed

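ATAC-seq peaks of 1 hCMEC/D3 library were used. The authors called them with MACS 2.2.7.1 without a control in broad mode, per the file headers, with tags shifted by -100 bp, extended to 200 bp and kept once per position (22188172 of 31532245), at q of 0.05 and 0.1. In broad mode the deposited pileup signal, fold enrichment ratio and −log10 q-value are means over a peak. The header sets the mouse genome size, 1870000000 bp, which fixes the lowest background at 2.37 tags. It so affects folds, and also the calling of peaks where that floor applies. GRCh38 is the human build in the submitters' processing notes. End peaks were found for 72.8% of protein-coding genes without an offset and for 27.5% to 29.0% with peaks moved by 5, 10 or 50 kb. Genes came from a RefSeq table (GRCh38.p14) without exons, so exons, introns and UTRs are not told apart. Local background was computed as (pileup + 1)/fold - 1. Placing was tested on simulated data. Python 3.11.15, pandas 2.3.3, scipy 1.17.1 and matplotlib 3.10.9 were used. Named genes were all members and, of the other MMP genes and the regulators, those without an end peak and the 3 highest and 3 lowest by end pileup; markers were named after their values were seen. Members and lists were chosen with earlier results of these data known; the CpG limit of 0.6 was set afterwards. The 2 RNA libraries were not analysed here, because no table used pairs their transcripts with genes.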

Additional observations from a re-analysis of the deposited data

How the results depend on the processing

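With 1 choice changed at a time, 51 values were recomputed, and 37 stayed within 1.5 times of the reported count or inside the 95% Wilson interval of the background share (coding genes that had an end peak). The other 14 moved. The background share was 69.2% with a window of 500 bp, 79.2% with 2500 bp, 66.7% with −log10 q of at least 5, 56.0% with a fold of at least 4, 63.4% with a pileup of at least 20 tags, 71.5% when 200 bp had to overlap and 70.3% when the middle of the peak had to lie in the window. With a fold of at least 4, 5 members kept an end peak; MMP2, TIMP2 and TIMP3 lost theirs. The same filter left 4 other MMP genes and 11 regulators with an end peak and 28 peaks in the member loci. A pileup of at least 20 tags left 11 peaks in the chromosome 11 cluster. A flank of 25 kb gave 76 peaks in the member loci, and the stretch around MMP1, MMP3 and MMP10 alone held 9 peaks. Stricter filters leave fewer peaks by construction. MMP2 lost its end peak with the q filter too, and MMP1 and MMP2 lost theirs with the pileup filter. Leaving out peaks at an end of another protein-coding gene, chosen after seeing the data, left 44 of the 47 peaks. No paired analysis was possible because there was 1 ATAC library.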

Other observations

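In the chromosome 11 cluster the highest pileups lay outside the genes examined. MMP20, which encodes the enamel protease enamelysin, had 5 peaks inside the gene and none at an end, with pileups of 20.1, 35.6, 13.0, 17.1 and 39.7 tags in order of position. The last of these, at 102620914 to 102621525 with a fold of 8.62, was the highest of the 24 peaks of the cluster. Beside MMP8, the neutrophil collagenase, 3 peaks of nearly equal pileup (29.99, 29.80 and 29.97 tags) lay 2825, 5283 and 8347 bp from the gene, and none lay in it. MMP13, collagenase-3, had 1 peak of 19.5 tags at 1645 bp from its lower end, just outside the 1 kb window used for gene ends.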
